A study of Mus musculus with 5 samples.

Results

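The genes described here encode 10 subunits and close partners of activator protein 1 (AP-1) in lymphatic endothelial cells (LECs) of mouse lymph nodes. They are the FOS group genes Fos, Fosb, Fosl1 and Fosl2, the JUN group genes Jun, Junb and Jund, the ATF group genes Atf3 and Batf3, and the small MAF gene Maff. They were taken by name, and all 10 were present among the 27843 genes of the count table. AP-1 is a family of transcription factor dimers held together by a leucine zipper. A FOS protein binds DNA only with a partner, usually a JUN protein, while JUN proteins can also pair with each other. Many of these genes are immediate early genes, whose transcription starts within minutes of a stimulus such as a growth factor, a cytokine, mechanical strain or enzymatic tissue digestion. In osteoclast precursors, the receptor RANK acts through JNK and FOS, and mice without Fos lack osteoclasts.

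RNA was sequenced from LECs of 2 knockout libraries and 3 control libraries. The knockout mice were Ccl19 Cre Rankl flox/flox, in which Cre from the Ccl19 promoter deletes the RANKL gene Tnfsf11 in Ccl19-expressing stromal cells. Whether LECs kept the gene was not tested. The controls were Rankl flox/flox, so both groups carried the floxed allele and only knockouts carried Cre, and an effect of Cre itself cannot be told apart from that of the deletion. All mice were C57BL/6 and 8 weeks old, and LECs were sorted as CD45-, TER119-, CD31+ and podoplanin+ cells. Nothing in the labels says how many mice went into a library, so p-values measure the spread between these libraries. In sorted pools, fewer cells of a type and less RNA per cell cannot be told apart.

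Library totals were 53301671 and 59725200 reads in the knockouts and 52839375 to 70171307 reads in the controls. Tnfsf11 had 9 and 0 reads in knockouts 1 and 2, and 27, 13 and 9 reads in controls 1, 2 and 3, which does not check a deletion made in other cells. By edgeR, at an adjusted p of 0.05, 2 of the 9 LEC markers rose (Mmrn1 by 1.56 and Ccl21a by 3.79 on the log2 scale) and 2 fell (Prox1, at -0.75, and Itga9, at -0.69), while Lyve1 (-0.57), Pdpn, Flt4, Reln and Pecam1 did not pass. They summed to 10398 to 12233 CPM (reads scaled to the TMM-adjusted library size) in knockouts and 10190 to 11328 CPM in controls, a sum in which these opposite differences offset each other. Ccl21a differed widely between the knockouts, at 661 and 142 CPM in knockouts 1 and 2, against 24.2 to 34 CPM in controls. Its call was lost without each control and with no filter on low counts. The 14 blood endothelial markers summed to 6784 and 6982 CPM in knockouts and 5802 to 6070 CPM in controls, and 8 of them rose and 1 fell. The rises ran from 1.09 (Vwf) to 2.94 (Sox17) on the log2 scale. Kdr fell, from 1794 to 2027 CPM in controls to 1203 and 1153 CPM in knockouts. The markers that rose stood at no more than 80.5 CPM in any library (Cd34 in knockout 2), so they add little to the sum. Larger parts of it came from markers that did not pass. Cd36 had 2386 and 1708 CPM in knockouts and 779 to 1445 CPM in controls. Plvap had 2787 and 3628 CPM in knockouts and 2455 to 2809 CPM in controls. Over all tested genes 3.25% were higher and 3.99% lower by edgeR, to be set beside each count here. The 10 pericyte and smooth muscle markers summed to 155 to 193 CPM in knockouts and 113 to 148 CPM in controls, and 3 rose. The sums of the 11 fibroblastic reticular cell markers were 1132 and 564 CPM in knockouts 1 and 2, against 389 to 549 CPM in controls, with 0 called by edgeR, 2 higher at an unadjusted p under 0.05, 1 higher by DESeq2 and 0 by limma-voom. The 14 macrophage and monocyte markers summed to 16.5 to 17.1 CPM in knockouts and 20 to 25.8 CPM in controls, with Cd163 at 0 reads in every library. Of the 12 tested, Csf1r and Mpeg1 fell (-2.58 and -2.27 on the log2 scale) and Adgre1 rose, at 0.274 and 0.344 CPM (15 and 20 reads) in knockouts and 0 reads in all controls. Each of these calls was lost without each control. The Adgre1 call was also lost by DESeq2 and with a filter of at least 1 CPM in 2 libraries. The 11 lymphocyte markers summed to 24.1 to 32.5 CPM in knockouts and 12.7 to 21.1 CPM in controls, with 1 lower (Il7r, at -3.90 on the log2 scale). Il7r had only 5 and 1 reads in knockouts and 35 to 58 reads in controls. Its call was lost without each control and with a filter of at least 1 CPM in 2 libraries. The 6 platelet and megakaryocyte markers summed to 997 to 1262 CPM in knockouts and 1439 to 2013 CPM in controls, with 3 lower. The 10 high endothelial venule markers summed to 1942 to 2456 CPM in knockouts and 1837 to 2206 CPM in controls, with 3 higher and 1 lower. Ccl21a, also an LEC marker above, is 1 of these 3. The part of these cells in the results below was not tested.

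Of the 10 genes, 1 rose (Fosl1) and 1 fell (Fosl2) in the knockout LECs, and 8 did not pass the test. Fosl1, which encodes FRA-1, was 2.33-fold as high as in controls. Fosl2, which encodes FRA-2, stood at 0.649 of the control level. The test was edgeR's quasi-likelihood test with Benjamini-Hochberg adjustment over 15874 genes and a threshold of 0.05. By the same rule 3.25% of all tested genes were higher and 3.99% lower, 7.24% in all. The median log2 fold change of the 10 genes was 0.20, against -0.0015 over all tested genes. Both knockout libraries lay outside all 3 controls for 5 of the 10 genes, 3 above (Fosl1, Maff and Jund) and 2 below (Fosl2 and Fosb). Among all tested genes 45.4% did so, 22.8% above and 22.5% below.

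**Figure D1:**
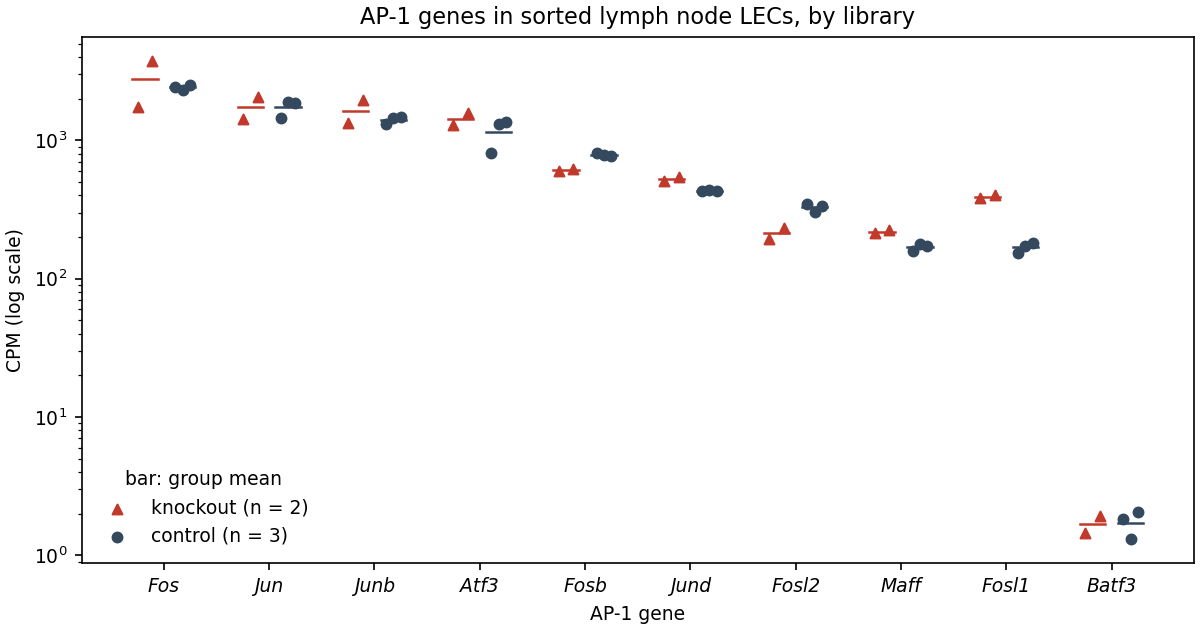
CPM (vertical axis, log scale) of the 10 AP-1 genes, 1 point per library (triangles, 2 knockouts; circles, 3 controls), with a bar at each group mean. Fosl1 lies above all controls in both knockouts, at 384 and 401 CPM, while for Fos the knockouts lie on either side of the controls, at 1756 and 3768 CPM.

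Most of the family was abundant. Per exon length, as CPM divided by exon length in kilobases (RPKM), Fos ranked between 12 and 36 among 15821 tested genes across the 5 libraries. Junb ranked between 36 and 51, Atf3 between 44 and 96, Jun between 50 and 75 and Jund between 125 and 149. Batf3, which encodes a partner of JUN proteins known from dendritic cells, had 79 and 112 reads in the knockouts and 82 to 129 reads in the controls, and its best rank was 9467. Its log2 fold change was -0.03 ± 0.32 (SE), and it changed sign with single libraries left out.

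The 250 bases before the annotated start of the most abundant genes, and of Fosl2, show which short elements lie at hand. RefSeq entries on GRCm38.p6, the build of mm10, were matched for 9 of the 10 genes, and the window of Fosl1 is not used here. Capitals mark TGACGT (the core of the cyclic AMP response element, CRE, to which CREB and ATF proteins bind), TGANTCA (the AP-1 site), TGACATCA (the AP-1-like site known from the Jun promoter), the CArG box (bound by serum response factor) and, on the forward strand only, TATAAA. The others were searched on both strands, and no marked elements overlapped in the windows printed here.
Fos, chr12:85473640-85473889, plus strand: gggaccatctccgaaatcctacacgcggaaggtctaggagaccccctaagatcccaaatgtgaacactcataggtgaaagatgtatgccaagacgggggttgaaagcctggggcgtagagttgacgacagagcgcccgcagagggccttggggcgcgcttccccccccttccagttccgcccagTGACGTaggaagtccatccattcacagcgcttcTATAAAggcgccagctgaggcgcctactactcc
Jun, chr4:95052223-95052472, minus strand: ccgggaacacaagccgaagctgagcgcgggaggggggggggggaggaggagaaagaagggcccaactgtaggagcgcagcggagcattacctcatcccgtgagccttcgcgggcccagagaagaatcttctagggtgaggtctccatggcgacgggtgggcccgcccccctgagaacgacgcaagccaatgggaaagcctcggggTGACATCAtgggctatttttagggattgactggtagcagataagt
Junb, chr8:84978749-84978998, minus strand: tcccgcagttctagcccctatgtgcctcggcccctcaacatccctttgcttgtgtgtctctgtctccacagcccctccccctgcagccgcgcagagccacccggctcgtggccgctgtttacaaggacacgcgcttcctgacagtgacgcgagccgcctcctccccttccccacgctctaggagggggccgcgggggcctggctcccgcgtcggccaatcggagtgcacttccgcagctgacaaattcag
Atf3, chr1:191183334-191183583, minus strand: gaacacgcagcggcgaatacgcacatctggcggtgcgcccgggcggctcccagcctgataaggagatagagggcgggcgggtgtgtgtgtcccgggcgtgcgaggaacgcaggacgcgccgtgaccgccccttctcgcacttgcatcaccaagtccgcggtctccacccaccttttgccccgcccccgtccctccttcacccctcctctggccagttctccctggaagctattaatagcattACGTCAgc
Fosl2, chr5:32136222-32136471, plus strand: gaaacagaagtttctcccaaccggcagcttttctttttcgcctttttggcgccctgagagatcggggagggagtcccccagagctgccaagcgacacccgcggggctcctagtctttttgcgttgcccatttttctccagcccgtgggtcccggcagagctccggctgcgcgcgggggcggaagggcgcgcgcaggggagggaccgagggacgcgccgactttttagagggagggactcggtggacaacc

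The Fos window held a CRE core 66 bases before the start and a TATA box 33 bases before it. The Jun window held TGACATCA 45 bases before the start, and the Atf3 window held the CRE core on the other strand, as ACGTCA, 8 bases before the start. None of the 5 elements was found in the Junb and Fosl2 windows. Of 32841 promoter windows of the same length, 6.47% held the CRE core, 6.75% TGANTCA, 2.93% TGACATCA, 1.47% a CArG box and 7.59% TATAAA. These matches describe letters, not binding. Other starts of these genes were not searched.

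Fosl1 (ENSMUSG00000024912, chromosome 19, 5447547 to 5455946, plus strand, mm10) stood at 384 and 401 CPM in knockouts 1 and 2, against 154, 172 and 181 CPM in controls 1, 2 and 3. Every knockout value was more than any control value, and the gap between the groups was far wider than the spread within either. Its group means were 393 ± 12.4 CPM in knockouts (SD, n = 2) and 169 ± 13.5 CPM in controls (SD, n = 3). Fosl1 thus differed by 1.22 ± 0.10 on the log2 scale (SE; Benjamini-Hochberg adjusted p = 0.0095 by the edgeR test). FRA-1 lacks the transactivation domain of FOS and is itself induced by AP-1 and by sustained ERK signalling. The fold stayed between 1.16 and 1.27 on the log2 scale with a library left out, and the call was lost without control 3 (adjusted p = 0.063, edgeR). That fit called 2 genes higher and 9 lower over all genes, against 516 and 634 with all 5 libraries. Fits without control 1 (135 and 131) and without control 2 (78 and 95) also called fewer over all genes. Calls lost in these fits, here and below, thus go with a loss over all genes. On the opposite strand, exons of Ccdc85b cover 57.2% of the Fosl1 exon bases, and the kits do not mark strand, so reads there cannot be assigned. Ccdc85b itself had 22.3 and 20.7 CPM in knockouts and 13.7 to 16.2 CPM in controls, and did not pass (adjusted p = 0.055, edgeR).

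Fosl2 (ENSMUSG00000029135, chromosome 5, 32135801 to 32157842, plus strand) stood at 193 and 234 CPM in knockouts 1 and 2, against 346, 305 and 336 CPM in controls 1, 2 and 3. Both knockouts were below every control. Its means were 213 ± 29 CPM in knockouts (SD, n = 2) and 329 ± 21.3 CPM in controls (SD, n = 3), which differed by -0.62 ± 0.12 on the log2 scale (SE; Benjamini-Hochberg adjusted p = 0.031 by the edgeR test). FRA-2 is a late-acting FOS protein that, like FRA-1, lacks the FOS transactivation domain. The direction held in every fit, between -0.77 and -0.43. The call was lost without control 1 (-0.58, adjusted p = 0.088), without control 2 (-0.67, adjusted p = 0.076), without control 3 (-0.61, adjusted p = 0.12) and when length and GC content of the exons were offset (-0.43, adjusted p = 0.15), all by edgeR.

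The balance of the FRA genes therefore differed between the groups in each library. Fosl1 was 9.47 and 8.17 times Fosl2 in RPKM in knockouts 1 and 2, and 2.12, 2.68 and 2.56 times Fosl2 in controls 1, 2 and 3. On the CPM scale Fosl1 was above Fosl2 in both knockouts (1.99 and 1.72 times) and below it in all 3 controls (0.445 to 0.563 times). CPM does not correct for exon length, which is 2033 bases for Fosl1 and 9680 bases for Fosl2. Per exon length Fosl1 was above Fosl2 in every library, so the crossing on the CPM scale is no switch in which gene was higher. The ratio combines the only 2 genes of the family that passed, so it adds no separate test.

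**Figure D2:**
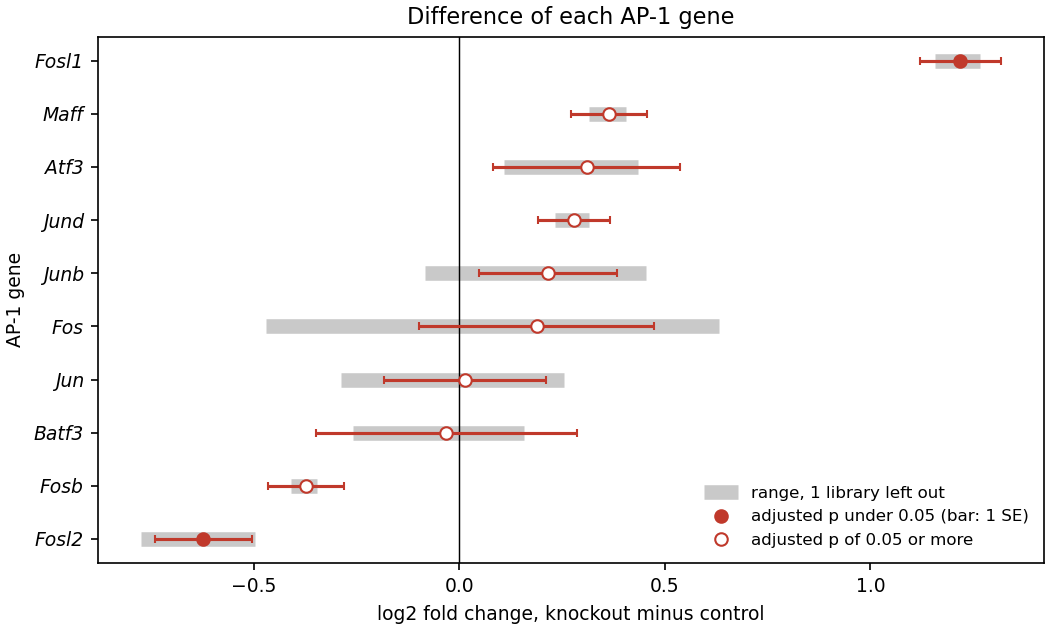
Knockout minus control difference on the log2 scale (horizontal axis) for the AP-1 genes, with bars of 1 SE; grey bands span the values with 1 library left out, and filled points passed an adjusted p of 0.05. Fosl1 at 1.22 and Fosl2 at -0.62 passed, while the band of Fos runs from -0.47 to 0.63.

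Fosb (ENSMUSG00000003545, chromosome 7, 19302696 to 19310051, minus strand), which encodes a FOS protein with a full-length and a truncated splice form, had 596 and 623 CPM in knockouts 1 and 2, and 811, 780 and 775 CPM in controls 1, 2 and 3. The groups did not overlap, at 609 ± 19.1 CPM in knockouts (SD, n = 2) and 789 ± 19.5 CPM in controls (SD, n = 3). The difference of -0.37 ± 0.09 on the log2 scale (SE) did not pass (edgeR quasi-likelihood test, Benjamini-Hochberg adjusted p = 0.058). DESeq2 called it lower (-0.37, adjusted p = 2.2e-04), and the edgeR values stayed between -0.41 and -0.35 with a library left out. Gene counts do not separate the splice forms.

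Fos (ENSMUSG00000021250, chromosome 12, 85473890 to 85477273, plus strand), which encodes the FOS protein with the strongest transactivation domain, was the most abundant gene of the family in every library. Knockouts 1 and 2 had 1756 and 3768 CPM, against 2441, 2329 and 2504 CPM in controls 1, 2 and 3. Knockout 1 was thus below all controls and knockout 2 above them, while the controls lay within 1.08-fold of each other. The means were 2762 ± 1422 CPM in knockouts (SD, n = 2) and 2425 ± 88.6 CPM in controls (SD, n = 3), with a log2 fold change of 0.19 ± 0.29 (SE; edgeR, Benjamini-Hochberg adjusted p = 0.73). The direction of Fos rests on 1 library. Without knockout 1 it was 0.63 and passed (adjusted p = 0.022, edgeR), and without knockout 2 it was -0.47 and did not pass (adjusted p = 0.057, edgeR).

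The 3 JUN genes encode the usual partners of FOS proteins. Jun (ENSMUSG00000052684, chromosome 4, 95049034 to 95052222, minus strand), the most active JUN in transcription assays, had 1423 and 2072 CPM in knockouts 1 and 2, and 1440, 1887 and 1867 CPM in controls 1, 2 and 3. The knockouts lay just below and above the range of the controls, and the log2 fold change was 0.01 ± 0.20 (SE; edgeR, Benjamini-Hochberg adjusted p = 0.97). It was 0.25 without knockout 1 and -0.29 without knockout 2.

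Junb (ENSMUSG00000052837, chromosome 8, 84974484 to 84978718, minus strand), which can oppose Jun in cell cycle control, had 1338 and 1944 CPM in knockouts 1 and 2, against 1321, 1443 and 1476 CPM in controls 1, 2 and 3. Knockout 1 fell within the controls and knockout 2 above them (log2 fold change 0.22 ± 0.17, SE; edgeR, Benjamini-Hochberg adjusted p = 0.46). It was 0.45 without knockout 1 and -0.08 without knockout 2.

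Jund (ENSMUSG00000071076, chromosome 8, 70698949 to 70700616, plus strand), the JUN gene that resting cells express steadily, was more even. It had 511 and 541 CPM in knockouts 1 and 2, and 432, 440 and 427 CPM in controls 1, 2 and 3. Both knockouts were above all controls, but the log2 fold change of 0.28 ± 0.09 (SE) did not pass (edgeR, Benjamini-Hochberg adjusted p = 0.098). DESeq2 called it higher (adjusted p = 0.008), and with the length and GC offset the edgeR value was 0.09 ± 0.11 (SE). Antisense Gm11175 covers 52.6% of its exon bases. Antisense Junos covers 7.28% of Jun and Prdx2 on the opposite strand 7.52% of Junb.

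Atf3 (ENSMUSG00000026628, chromosome 1, 191170296 to 191218039, minus strand), a stress-induced repressor that pairs with JUN proteins, had 1298 and 1568 CPM in knockouts 1 and 2, against 808, 1313 and 1347 CPM in controls 1, 2 and 3. The groups overlapped, and control 1 stood well below the other 4 libraries. The log2 fold change was 0.31 ± 0.23 (SE; edgeR, Benjamini-Hochberg adjusted p = 0.44). It was 0.11 without control 1.

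Maff (ENSMUSG00000042622, chromosome 15, 79346621 to 79359076, plus strand) encodes a small MAF protein, which has no transactivation domain of its own and pairs with CNC factors such as NRF2. It had 213 and 224 CPM in knockouts 1 and 2, against 157, 179 and 172 CPM in controls 1, 2 and 3. Both knockouts were above all controls (219 ± 7.89 CPM, SD, n = 2, against 170 ± 11.2 CPM, SD, n = 3). The log2 fold change of 0.37 ± 0.09 (SE) did not pass (edgeR, Benjamini-Hochberg adjusted p = 0.061). DESeq2 called it higher (adjusted p = 0.0058), as did edgeR on genes with at least 1 CPM in 2 libraries (adjusted p = 0.047).

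The make-up of the AP-1 transcripts was compared per exon length. The 10 genes summed to 3071 and 4557 RPKM in knockouts 1 and 2, and 3001, 3394 and 3488 RPKM in controls 1, 2 and 3, and these ranges overlapped. The FOS group made up 34.2% and 42.2% of this sum in the knockouts and 36.3% to 42.6% in the controls, and the JUN group 43.4% and 39.9% in the knockouts and 42.5% to 43.7% in the controls. Within the FOS group, Fosl1 supplied 6.15% and 4.33% of the sum in knockouts 1 and 2, against 2.49% to 2.55% in controls. Fosb supplied 3.11% and 2.19% in the knockouts, against 3.56% to 4.33% in controls, and Fosl2 0.649% and 0.53% in the knockouts, against 0.928% to 1.19% in controls. The share of Fos ran from 24.3% in knockout 1 to 35.2% in knockout 2, which spans all 3 controls (29.2% to 34.6%). Junb was the steadiest large share, at 18.9% and 18.5% in knockouts and 18.4% to 19.1% in controls. Exon length was the union of all annotated exons, which lowers the values of genes with long or little-used exons such as Fosl2 and Fosb. It also kept the exon bases of Fosl1 (57.2%) and Jund (52.6%) that opposite-strand genes cover. How reads there were counted is not given, so the levels of both against other genes are uncertain.

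**Figure D3:**
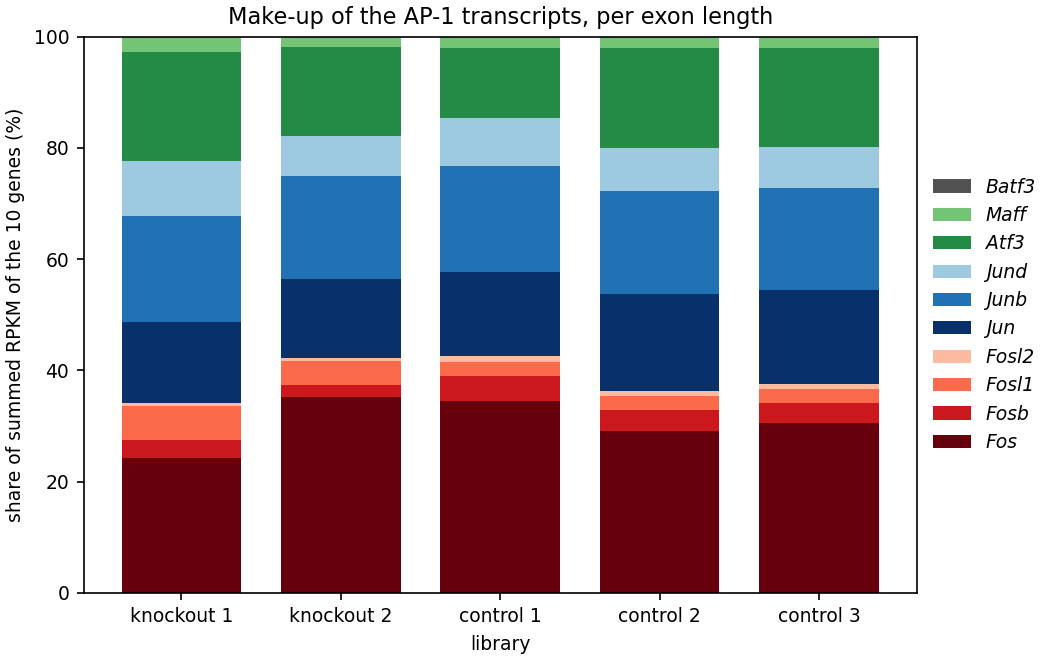
Share of each gene in the summed RPKM of the 10 AP-1 genes (vertical axis, percent), 1 stacked bar per library. The Fosl1 band is widest in the 2 knockouts (6.15% and 4.33%, against 2.49% to 2.55% in the controls), and the Fos band is narrowest in knockout 1 and widest in knockout 2.

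The 2 knockout libraries differed from each other, most of all in Fos, Jun and Junb. All 10 genes were higher in knockout 2 than in knockout 1, by 0.06 (Fosb and Fosl1) to 1.10 (Fos) on the log2 scale of CPM with 0.5 added. Of all tested genes 48.9% were higher in knockout 2. Jun and Junb differed by 0.54 each, Batf3 by 0.32, Fosl2 by 0.28 and Atf3 by 0.27, while Jund, Maff, Fosb and Fosl1 differed by at most 0.08. Among the 8211 tested genes with a mean of at least 10 CPM, 81 differed as much as Fos in either direction.

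Immediate early genes outside AP-1 went the same way between the knockouts. Of 31 measured, 24 were higher in knockout 2 than in knockout 1, with a median difference of 0.23 on the log2 scale. Egr1, a zinc finger factor induced through serum response factor, had 828 and 1242 CPM in knockouts 1 and 2 and 809, 1138 and 910 CPM in controls 1, 2 and 3. Ier2 had 102 and 167 CPM in the knockouts and 129, 147 and 150 CPM in the controls, and Nr4a1, an orphan nuclear receptor gene, 345 and 585 CPM in the knockouts and 537, 739 and 785 CPM in the controls. As with Fos and Jun, knockout 1 was the lowest library for Ier2 and Nr4a1. Egr1, Ier2 and Nr4a1 were chosen after their values were seen. Heat shock genes, which tissue digestion also induces, were higher in knockout 2 for 11 of 12, with a median difference of 0.28. The part of digestion, sorting or handling time in these differences was not tested.

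**Figure D4:**
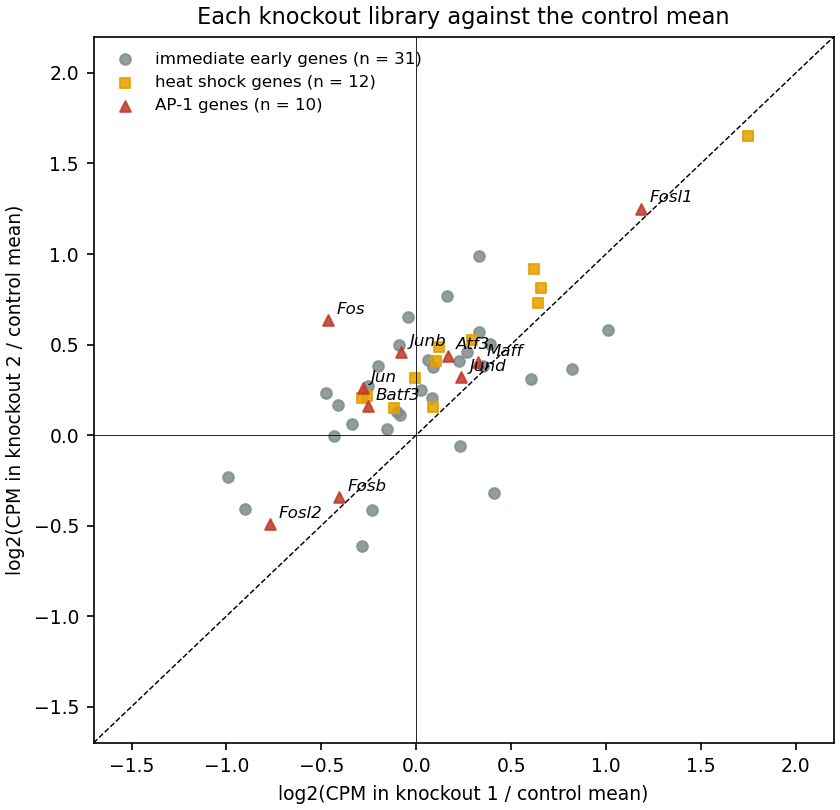
Log2 ratio of CPM to the control mean in knockout 1 (horizontal axis) and knockout 2 (vertical axis) for the 10 AP-1 genes (triangles), 31 immediate early genes outside AP-1 (circles) and 12 heat shock genes (squares), with the line of equal values dashed. Fosl1, Fosb, Jund and Maff lie near the line, and Fos lies off it, below 0 in knockout 1 and above 0 in knockout 2.

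Between the groups, 2 of the 31 immediate early genes rose and 0 fell by edgeR (3.25% and 3.99% of all tested genes). At an unadjusted p under 0.05, these counts were 6 and 2, DESeq2 called 5 and 1, and limma-voom 2 and 0. Over all tested genes, 12.8% were higher and 13.6% lower at an unadjusted p under 0.05, 7.9% and 9.24% by DESeq2, and 3.44% and 4.14% by limma-voom. The median log2 fold change was 0.14. Ier3, an early response gene of NF-kB and ERK signalling, stood at 453 and 490 CPM in knockouts and 330 to 370 CPM in controls (log2 fold change 0.45 ± 0.10, SE; edgeR, Benjamini-Hochberg adjusted p = 0.044). Ccn2, a matrix protein gene that responds to YAP and TGF-beta, stood at 34.8 and 25.8 CPM in knockouts and 14.4 to 19.8 CPM in controls (0.81 ± 0.18, SE; adjusted p = 0.045, edgeR). Dusp1, which encodes a phosphatase that switches off MAP kinases, had a log2 fold change of 0.45 ± 0.12 and the kinase gene Sik1 -0.63 ± 0.17, and neither passed (adjusted p = 0.069 and 0.07, edgeR). Ier3 and Ccn2 each kept their call in 1 of the 5 fits that left out a library, Ier3 without knockout 1 and Ccn2 without knockout 2.

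Of the 12 heat shock genes, 4 rose and 0 fell by edgeR (median log2 fold change 0.29), where 3.25% of all tested genes were higher and 3.99% lower. At an unadjusted p under 0.05 the counts were 5 and 0 (12.8% and 13.6% of all tested genes), and DESeq2 called 5 and 0 (7.9% and 9.24%). Those that rose by edgeR were Hspb1 (1.70 ± 0.16, SE), Bag3 (0.78 ± 0.11), Hspa1b (0.69 ± 0.10) and Hspa1a (0.74 ± 0.16). Hspb1, a small heat shock protein gene, stood at 148 and 139 CPM in knockouts and 37.2 to 54.4 CPM in controls. All 4 lost their call without control 3, a fit that called 2 genes higher and 9 lower over all genes. Hspb1 alone kept it both without control 1 and without control 2. Hspa1a and Hspa1b are near-identical copies, and how the counting split their reads is not given. The part of this rise in the AP-1 results was not tested.

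Genes that act upstream of AP-1 were called in both directions. Of 28 tested genes of the MAP kinase cascades, among 30 measured, which phosphorylate JUN and induce FOS, 2 rose and 2 fell, with a median log2 fold change of 0.01, where 7.24% of all tested genes were called. DESeq2 called 3 and 4, where it called 7.9% and 9.24% of all tested genes. Map2k7, which encodes the JNK kinase MKK7, stood at 15 and 15.6 CPM in knockouts and 22.8 to 27.6 CPM in controls (log2 fold change -0.73 ± 0.12, SE; edgeR, Benjamini-Hochberg adjusted p = 0.023). Map3k20, which encodes the stress kinase ZAK, fell as well (-0.59 ± 0.12). The ERK-activated kinase gene Rps6ka3 (RSK2; 0.58 ± 0.10) and the p38 gene Mapk12 (0.49 ± 0.10) rose. All 4 lost their call without each control library.

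Among 10 MAP kinase phosphatases, 1 fell and 0 rose by edgeR, where 3.99% of all tested genes fell and 3.25% rose. At an unadjusted p under 0.05, 2 were lower and 2 higher (13.6% and 12.8% of all tested genes). DESeq2 called 1 lower and 1 higher (9.24% and 7.9% of all tested genes). The 1 was Dusp16, whose product acts on JNK (24.7 and 22.1 CPM in knockouts, 31.1 to 33.3 CPM in controls; -0.46 ± 0.10, SE; adjusted p = 0.043, edgeR). It kept this call without knockout 1 and lost it without each of the other libraries. Dusp9 (2.50 ± 0.58), at under 0.5 CPM in every library, and Dusp6 (-0.50 ± 0.18) did not pass.

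Of 8 measured factors that act on the Fos promoter, 1 fell and 0 rose by edgeR (3.99% and 3.25% of all tested genes). At an unadjusted p under 0.05, 2 were lower and 2 higher (13.6% and 12.8% of all tested genes). DESeq2 called 1 lower and 1 higher (9.24% and 7.9% of all tested genes). Creb1, whose product binds the CRE shown in the Fos window, stood at 43.5 and 39.2 CPM in knockouts and 59.5 to 63.3 CPM in controls (-0.56 ± 0.09, SE; adjusted p = 0.022, edgeR). The call was lost without each control library and with the length and GC offset. Srf, which encodes serum response factor (0.38 ± 0.15), Elk3 (0.41 ± 0.11) and Mrtfa (-0.44 ± 0.18) did not pass.

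Of 18 genes that link RANK to AP-1, 1 fell and 0 rose by edgeR (median log2 fold change -0.13). Over all tested genes 3.99% fell and 3.25% rose. At an unadjusted p under 0.05, 4 were lower and 2 higher (13.6% and 12.8% of all tested genes). DESeq2 called 4 lower and 1 higher (9.24% and 7.9% of all tested genes). Traf3, an adaptor that restrains non-canonical NF-kB signalling, stood at 42.7 and 37.1 CPM in knockouts and 54.4 to 60 CPM in controls (-0.50 ± 0.10, SE; edgeR, Benjamini-Hochberg adjusted p = 0.038), and kept its call in 1 of the 5 fits that left out a library, the one without knockout 1. Tnfrsf11a, which encodes RANK, had 257 and 194 CPM in knockouts 1 and 2 and 220 to 221 CPM in controls. Traf5 (0.43 ± 0.10), Cyld (-0.50 ± 0.12) and Map3k7, which encodes the kinase TAK1 (-0.35 ± 0.09), did not pass.

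Of 36 other basic leucine zipper factors tested, 1 rose and 2 fell by edgeR, with a median log2 fold change of -0.10. Over all tested genes 3.25% rose and 3.99% fell. DESeq2 called 5 higher and 7 lower (7.9% and 9.24% of all tested genes). Cebpb, which encodes a factor of inflammatory and acute phase genes, stood at 522 and 568 CPM in knockouts and 344 to 369 CPM in controls (0.62 ± 0.09, SE; edgeR, Benjamini-Hochberg adjusted p = 0.02). Bach1, a haem-regulated repressor that pairs with small MAF proteins, stood at 48.2 and 55.6 CPM in knockouts and 79.4 to 104 CPM in controls (-0.81 ± 0.14, SE; adjusted p = 0.0245, edgeR), and Creb1 was the other that fell. Nfe2l2, which encodes NRF2 (0.38 ± 0.09), did not pass. Cebpb and Bach1 lost their call without each control library.

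Of 16 cofactors and regulators of AP-1, 1 fell and 0 rose by edgeR (3.99% and 3.25% of all tested genes). At an unadjusted p under 0.05, 2 were lower and 1 higher (13.6% and 12.8% of all tested genes). DESeq2 called 2 lower and 0 higher (9.24% and 7.9% of all tested genes). Ep300, which encodes the acetyltransferase p300, stood at 24.2 and 19.8 CPM in knockouts and 31.6 to 39.6 CPM in controls (-0.73 ± 0.14, SE; edgeR, Benjamini-Hochberg adjusted p = 0.034). It kept its call without knockout 1 and lost it without each of the other libraries. Fbxw7, which encodes the substrate receptor of a ligase that degrades JUN (-0.68 ± 0.17), did not pass.

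Genes known from other cells as AP-1 targets went both ways, with 3 of 28 tested higher and 4 lower and a median log2 fold change of 0.33, where 3.25% of all tested genes were higher and 3.99% lower. DESeq2 called 8 and 5, where it called 7.9% and 9.24% of all tested genes. Plaur, the urokinase receptor gene, stood at 870 and 1012 CPM in knockouts 1 and 2, and 384, 527 and 534 CPM in controls 1, 2 and 3 (log2 fold change 0.97 ± 0.16, SE; edgeR, Benjamini-Hochberg adjusted p = 0.0245). Mmp9, which encodes a gelatinase, stood at 185 and 143 CPM in knockouts, and 680, 426 and 548 CPM in controls (-1.75 ± 0.22, SE; adjusted p = 0.014, edgeR). Hmox1, which encodes haem oxygenase 1 and is repressed by BACH1 in many cells, stood at 31.7 and 39.1 CPM in knockouts and 84.4 to 197 CPM in controls (-2.10 ± 0.36, SE; adjusted p = 0.0245, edgeR). Il1b, which encodes interleukin 1 beta, had 0.11 and 0 CPM in knockouts and 1.99 to 2.69 CPM in controls (adjusted p = 0.021, edgeR), beside the macrophage markers given above. The others called were Cdkn1a, S100a4 and Lif. Mmp9 kept its call in 4 of the 5 fits that left out a library and lost it without control 3. Plaur lost it without control 2 and without control 3, and Il1b without each control library. Hmox1 kept it in 1 of the 5, the one without control 3.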

How the data were processed

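Per the file headers, the authors deposited a table of raw counts, with Ensembl genes in rows and the 5 libraries in columns. HTSeq 0.6.1, Bowtie2 2.1.0, bcl2fastq 2.17.1.14, TopHat2 2.0.14 and mm10 are listed, without their roles, per the submitters' processing notes. For the annotation release and for overlapping or multiply mapped reads, the setting is not given in the sources used here. Per the labels' protocols, cDNA was made with SMART-Seq v4 and tagmented with Nextera XT, which do not mark strand. Of 27843 genes, 27648 were matched to symbols with GENCODE M21, whose positions on mm10 are 1-based.

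The count test was that of edgeR 4.0.16, run in R 4.3.3. Genes passed filterByExpr (minimum count 10), and were scaled by TMM (factors 0.974 to 1.028, 1 CPM being 52 to 71 reads) and tested robustly (glmQLFit, legacy form) over all 5 libraries, with Benjamini-Hochberg adjustment and a call at 0.05. Each log2 fold change is knockout over control, and SE is the log2 fold change over the square root of F. The fit was tested on simulated counts. All 10 AP-1 genes passed the filter. Alternatives were RLE scaling, library totals, no filter, 1 CPM in 2 libraries, DESeq2 1.42.0, limma-voom (limma 3.58.1), no robust estimation, a loess offset (span 0.5) for exon length and GC content, each library left out, the replicate number as block and a call at 0.1. Up to 4 genes with the smallest p were to be named per list; genes outside that rule are values beside a result. The AP-1 genes and all lists were chosen with earlier results of these data known.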

Additional observations from a re-analysis of the deposited data

How the results depend on the processing

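Of the 15 alternatives, 13 kept Fosl1 higher past the threshold and 10 kept Fosl2 lower past it, and neither changed direction in any of them. The threshold of 0.1, counted among the 15, reuses the main fit, so it keeps both calls by construction. No pairing is stated in the labels, and deviations of same-numbered libraries from their group means correlated at 0.05 (number 1) and -0.05 (number 2). With 2 knockouts, their deviations are exact mirror images, so these values cannot decide whether libraries were paired. With the replicate block, 0 genes passed in either direction over all genes (2808 had an unadjusted p under 0.05), so 0 AP-1 genes and 0 pathway genes were called either way. In that fit Fosl1 was at 1.27 (adjusted p = 0.087, edgeR) and Fosl2 at -0.61 (adjusted p = 0.18, edgeR). Control 3, the only library of its number, adds nothing to the group difference there. Few residual degrees of freedom remain, so the block has little power. With the length and GC offset Fosl2 was at -0.43, 0 AP-1 genes were lower, 330 genes in all were lower against 408 higher (55.3% higher, against 44.9%), and 7 pathway genes were higher and 5 lower. DESeq2 called 3 AP-1 genes higher and 2 lower, 28 and 23 pathway genes and 1254 and 1466 of all genes. A threshold of 0.1 called 3 and 2 AP-1 genes, 25 and 21 pathway genes and 1188 and 1358 of all genes. With at least 1 CPM in 2 libraries 2 AP-1 genes were higher, and with library totals alone 7 pathway genes were lower. With 1 library left out, in designs of 2 against 2 or 1 against 3 where the lone knockout is assumed to vary like the controls, AP-1 genes called ran from 0 to 2 higher and 0 to 1 lower, pathway genes from 0 to 17 higher and 1 to 19 lower, and all genes from 2 to 784 higher and 9 to 1125 lower. The fit without control 3 called the fewest genes over all (2 higher and 9 lower), so most calls were lost there. With a library left out, Fosl1 ran from 1.16 to 1.27 and Fosl2 from -0.77 to -0.50. Genes that did not pass with all 5 libraries and changed sign were Fos (-0.47 to 0.63), Jun (-0.29 to 0.25, -0.10 without control 1, -0.0040 with limma-voom and -0.042 with the offset), Junb (-0.084 to 0.45) and Batf3 (-0.26 to 0.16, 0.11 with the replicate block, 0.01 without control 1 and 0.10 without control 3). The cause of these changes was not tested.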
